A study of Mus musculus with 4 samples.

Results

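A set of housekeeping genes of protein synthesis were followed through the Pol II peak lists of primary mouse osteoblasts. They were Eef1a1, Eef2, Eef1g, Eef1b2, Eif4a1, Eif4a2, Tpt1, Npm1, Ncl and Pabpc1, 10 of the 21887 protein-coding genes on assembled chromosomes. The genes were given by name, and a listed peak was assigned to one of them when it lay inside the gene or within 5 kb of its boundaries, as RefSeq places them on GRCm38.p6, the assembly behind mm10. RNA polymerase II (Pol II) had been recovered by ChIP-seq, in which crosslinked chromatin is precipitated with an antibody and sequenced. The cells were bone marrow mesenchymal stem cells grown out of bone pieces, passaged and then induced to osteoblasts in osteogenic medium, and the labels call the developmental stage young. One Pol II library came from wild-type osteoblasts without a treatment in its title, here called untreated, and 1 from osteoblasts treated with OSS_128167, an inhibitor of the chromatin deacylase SIRT6. The titles of the treated samples do not repeat the wild-type label, and the treatment field names OSS_128167 for all 4 samples of the series, inputs included, so the untreated group rests on its title. The list deposited for the OSS_128167 sample carries the name of SIRT6, not of the inhibitor, and whether it comes from the inhibitor treatment or another SIRT6 condition is not settled by the labels. It is called the OSS_128167 list here after the sample's title. There was 1 library per condition, so the lists were not tested against each other, and a difference between them is one between 2 libraries.

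Protein synthesis needs factors that load the ribosome onto the mRNA (initiation), move it along the coding sequence (elongation) and bind the poly(A) tail, and ribosomes themselves are assembled in the nucleolus. The mRNAs of many of these factors are among the most abundant in growing cells, and several start with a pyrimidine tract (TOP motif) through which the mTOR pathway controls their translation. Pol II pauses near the start of a gene and slows again beyond the poly(A) site, where transcription ends some distance past the annotated end of the gene.

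The untreated list held no peak at any of the 10 genes, and the OSS_128167 list held 40 peaks at 8 of them. Eef1b2 and Tpt1 had none in either list. Among all protein-coding genes, 2.71% had a peak inside or within 5 kb when the untreated peaks were used, and 46.7% when the OSS_128167 peaks were. The count of 0 among 10 genes in the untreated list (exact 95% Clopper-Pearson upper bound 30.8%) is therefore near the background and is no result about these genes. Other counts were 0 among the 10 genes as well, against a background of 2.30% within 1 kb, 3.13% within 10 kb and 2.70% with at least 50% of the peak inside the 5 kb limit. They were also 0 against backgrounds of 2.17% for a peak overlapping the gene, 0.142% and 0.0411% for one with an FDR of at most 0.05 and 1e-05, and 0.00457% for cover of at least 50% of the gene. The 8 of 10 genes with a peak in the OSS_128167 list (80%, exact 95% interval 44.4 to 97.5) stood beside 35.3% among the 6570 protein-coding genes no shorter than Tpt1 (3048 bp) and no longer than Ncl (14737 bp), of which 1.07% had an untreated peak. These intervals cover counting error only. The 10 genes were named with earlier results of these data known, not drawn at random, so the interval is no test against a background. The 2 backgrounds, 46.7% and 35.3%, stand beside the count as description only, and the length-matched share of 35.3% was added after the data were seen. Read depth is unknown for both libraries, since the lists give none, and Pol II density per cell cannot be told apart from the share of cells that carry it.

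An OSS_128167 peak overlapped the gene itself in 7 of the 10 (34.4% of protein-coding genes). With peaks limited to an FDR of at most 0.05, 7 of the 10 kept one inside or within 5 kb, against 15.6%. Eef2 was the one that lost its peaks. A limit of 1e-05 left 4 (Eef1a1, Eif4a1, Eif4a2 and Ncl), against 1.88%. Fold enrichment, FDR and pileup were given by the authors for each peak, and each holds only within the list it came from.

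The osteoblast identity of the cells was checked with marker genes. In the OSS_128167 list 7 of 10 osteoblast markers had a peak inside or within 5 kb, against 46.7% of protein-coding genes. Spp1 counted through a flank alone. Col1a1, Col1a2 and Postn were covered over at least 50% of their length, against 0.681% of protein-coding genes. Alpl, Bglap and Ibsp had no peak in either list. In the untreated list 3 of the 10 osteoblast markers had a peak, against 2.71% of protein-coding genes. So did 1 of 4 adipocyte markers (Pparg, with 3 untreated peaks and none in the OSS_128167 list) and no macrophage, endothelial or chondrocyte marker. With so few marker peaks, the untreated list gives no clear check of the label. Markers of other cells with a peak in the OSS_128167 list numbered 3 of 6 for macrophages, 3 of 4 for endothelial cells, 2 of 4 for chondrocytes and 1 of 4 for adipocytes. The only one of these covered over at least 50% was Cd68, which lies just past the end of Eif4a1 and is described with that gene. A peak in the OSS_128167 list was thus not particular to osteoblast markers, and its presence alone gives no clear check of the label either. The untreated list had 1694 peaks, of which 6.43% had an FDR of at most 0.05, and the OSS_128167 list 40748, of which 16.1% did.

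Promoter sequences from RefSeq (GRCm38.p6) were found for 7 of the 10 genes. Shown here are the 3 genes with the widest peak cover and the 2 with no listed peak, from 120 bases before the annotated start to 30 bases from it on, 5′ to 3′ on the strand of the gene. Capitals mark matches, on either strand, to 5 motifs that were searched for. One was TATAAA, the usual core of the element near many regulated starts. A related sequence, TATATAA, was searched on its own. The letters GGGCGG are bound by factors of the Sp1 family. The letters CCAAT are bound by NF-Y. The letters CGTCA are a part of the cyclic AMP response element. Matches to different motifs did not overlap in the sequences printed.
Eif4a1, chr11:69672394-69672543, minus strand: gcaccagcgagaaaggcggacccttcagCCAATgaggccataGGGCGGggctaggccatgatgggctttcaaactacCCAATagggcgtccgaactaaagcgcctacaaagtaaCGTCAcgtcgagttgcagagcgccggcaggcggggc
Eef1a1, chr9:78481695-78481844, minus strand: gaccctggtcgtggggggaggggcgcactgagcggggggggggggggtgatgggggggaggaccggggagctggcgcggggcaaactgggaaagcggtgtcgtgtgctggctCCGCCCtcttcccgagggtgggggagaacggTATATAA
Eif4a2, chr16:23107348-23107497, plus strand: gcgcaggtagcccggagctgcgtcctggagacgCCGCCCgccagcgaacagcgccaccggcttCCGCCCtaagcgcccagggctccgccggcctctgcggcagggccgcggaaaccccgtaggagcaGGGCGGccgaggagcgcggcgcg
Tpt1, chr14:75845136-75845285, plus strand: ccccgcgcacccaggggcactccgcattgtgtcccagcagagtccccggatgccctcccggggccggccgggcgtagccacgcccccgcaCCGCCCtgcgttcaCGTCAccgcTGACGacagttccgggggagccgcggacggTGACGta
Eef1b2, chr1:63176711-63176860, plus strand: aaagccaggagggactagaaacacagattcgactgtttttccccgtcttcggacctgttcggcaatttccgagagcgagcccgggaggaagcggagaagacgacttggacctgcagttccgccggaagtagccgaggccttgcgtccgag

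Among the 7 promoters, GGGCGG was found in 5 (29.1% of the 32851 RefSeq promoters of this length hold it) and CGTCA in 4 (14.0%). CCAAT was found in 1 of the 7, Eif4a1 (24.0% of promoters), TATAAA in Eef2 alone (7.16%) and TATATAA in Eef1a1 alone (1.77%). The Eef1a1 match begins at base 24 after the annotated start, and where transcription begins in these cells was not tested. Of the 5 sequences printed, Eif4a1 with a peak and Tpt1 without one both hold GGGCGG and CGTCA, and Eef1b2 holds none of the 5 motifs. The window of Eif4a1 was the only one of the 7 under a listed peak, over 72 of its 150 bases. These matches are letters in a window and say nothing of whether a factor was bound.

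**Figure D1:**
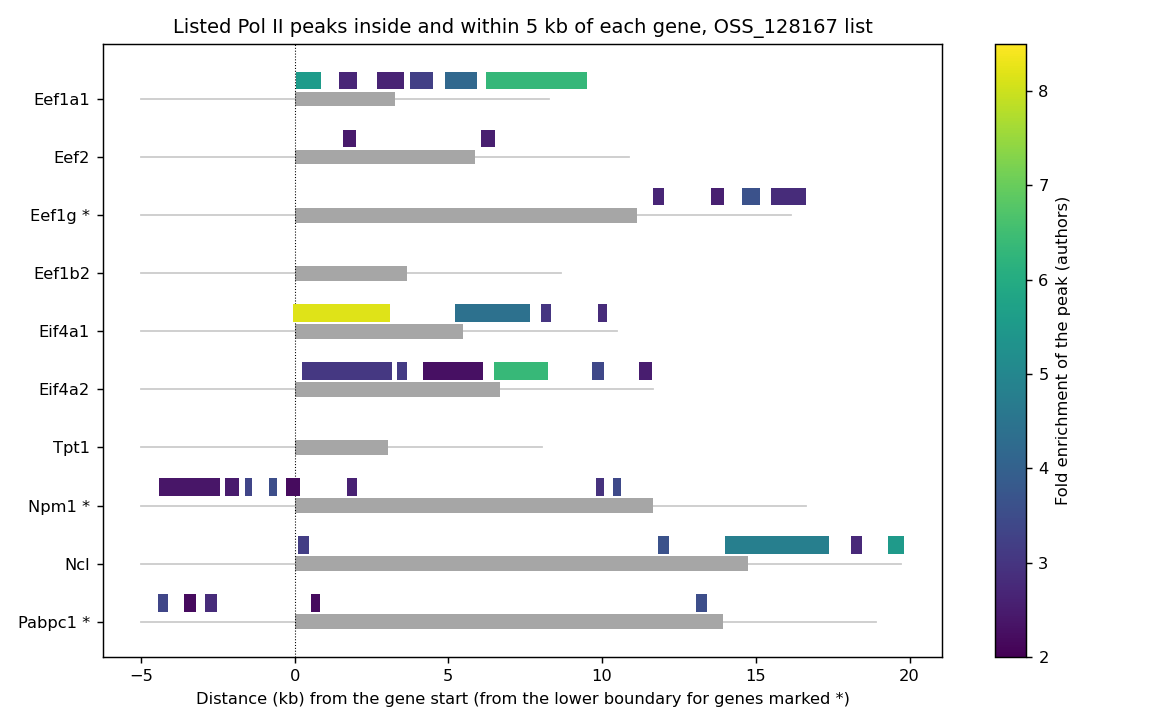
Listed Pol II peaks (coloured bars, colour by the authors' fold enrichment) above each gene (grey bar) with its 5 kb flanks (thin line), by distance in kb, OSS_128167 library. Genes run left to right from their start, except Eef1g, Npm1 and Pabpc1 (marked *), drawn by coordinate; Eif4a2, Eif4a1 and Eef1a1 carry the widest cover, at 80.9%, 61.2% and 60.4%.

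The initiation factor genes Eif4a1 and Eif4a2 and the elongation factor gene Eef1a1 lay mostly under Pol II peaks in the OSS_128167 library, and the other 7 genes were covered over less than 10%. Eif4a2 was covered over 80.9% (5390 of 6665 bp), Eif4a1 over 61.2% (3361 of 5488 bp) and Eef1a1 over 60.4% (1977 of 3272 bp). Cover of at least 50% was found in 0.681% of protein-coding genes, and in 0.700% of those in the range of lengths given above. Ncl followed at 9.68%, Npm1 at 9.02%, Eef2 at 7.50% and Pabpc1 at 4.74%, and Eef1g, Eef1b2 and Tpt1 were at 0%. The median over the 10 genes was 8.26%, against 0% over all protein-coding genes. With 1 library there is no spread against which neighbours in this order could be told apart. When peaks were limited to an FDR of at most 0.05, Eif4a2 fell to 47.0%, which left 2 genes above 50% (0.553% of protein-coding genes). With the limit at 1e-05 Eif4a1 alone was above it, at 56.3% (0.384% of protein-coding genes).

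Eif4a1 and Eif4a2 encode close paralogues of the DEAD-box RNA helicase that unwinds the 5′ ends of mRNAs for ribosome loading. Eif4a1 (chromosome 11, 69666936 to 69672423, minus strand) carried the peak of highest fold among the 10 genes. That peak ran for 3132 bp, from 42 bp before the start to 3089 bp into the gene, with a fold of 8.19 and an FDR of 9.45e-19, and ranked 63 by fold among all 40748 listed peaks. After a gap without a listed peak, a second stretch of 2442 bp (fold 4.39, FDR 5.34e-05) covered the last 271 bp of the gene and reached 2171 bp past its end. Pol II was thus listed over the first part of Eif4a1 and again across its end.

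The stretch across the end of Eif4a1 also lay on Cd68, a macrophage lysosomal gene that lies within 1 kb of that end. It covered 1406 bp (71.8%) of Cd68, and a further peak of 326 bp (fold 3.00, FDR 0.159) covered another 192 bp of it. Cd68 therefore owed its cover to peaks that also lie within 5 kb of Eif4a1. Among the other macrophage markers Csf1r, Lyz2 and Mrc1 had no peak, and Adgre1 and Ptprc were covered over 0.670% and 0.213%. Reads in such a peak carry no strand in these lists, so the 2 genes cannot be told apart there.

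In Eif4a2 (chromosome 16, 23107468 to 23114132, plus strand) peaks lay along most of the gene. The first began 234 bp after the start and ran for 2940 bp (fold 3.06, FDR 0.00343). It was followed by peaks of 314 bp (fold 3.13, FDR 0.0619) and 1945 bp (fold 2.26, FDR 0.290). The highest fold of this gene, 6.34 with an FDR of 2.05e-11, lay in a peak of 1758 bp that began 191 bp before the end and reached 1567 bp past it. That peak and 2 weaker ones farther out also overlap Rfc4, a DNA replication clamp loader subunit gene, whose annotated interval overlaps the end of Eif4a2. Of the 1758 bp, 1752 bp lay on Rfc4, so the 2 genes cannot be told apart there. It was also the only peak of Eif4a2 with an FDR of at most 1e-05. Among peaks wholly inside Eif4a2 the highest fold was 3.13. Eif4a1 thus had its highest fold at the start, and Eif4a2 in a peak across its end that is shared with Rfc4.

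Eef1a1 encodes the GTPase that brings aminoacyl-tRNA to the ribosome and is among the most highly expressed genes of most cells. All 6 peaks of Eef1a1 (chromosome 9, 78478453 to 78481724, minus strand) had an FDR of at most 0.05, and 4 an FDR of at most 1e-05. A peak of 815 bp began 32 bp after the start, with a fold of 5.54 and an FDR of 3.08e-11. The middle of the gene held a peak of 585 bp with the highest pileup of all 40 peaks, 56 units, but a fold of 2.70. The highest fold, 6.32 with an FDR of 2.14e-09, was not in the gene but in a peak of 3295 bp that began 2944 bp past the end and ran out to 6238 bp. Part of that peak, 1951 bp, lay over Mto1, a neighbour gene for a mitochondrial tRNA modification enzyme.

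The other elongation genes carried few peaks or none. Eef2 (chromosome 10, 81176631 to 81182509, plus strand), which encodes the translocase of the ribosome, had 1 peak inside (441 bp, fold 2.45, FDR 0.0567) and 1 beginning 170 bp past its end (465 bp, fold 2.53, FDR 0.155). The second of these overlaps Dapk3, a kinase gene, by 157 bp. Neither passed an FDR of 0.05.

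Eef1g and Eef1b2 encode subunits of the complex that recharges eEF1A with GTP. Eef1g (chromosome 19, 8967041 to 8978180) had no peak inside and 4 within 5 kb of its higher boundary, with folds of 2.57 to 3.64, of which 1 passed an FDR of 0.05 (584 bp, FDR 0.00326). It was the one gene of the 8 that counted through a flank alone. Eef1b2 (chromosome 1, 63176831 to 63180486) had its nearest OSS_128167 peak 32.2 kb away.

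Tpt1, which encodes the growth-associated protein TCTP, fell just outside the 5 kb limit. The nearest OSS_128167 peak to Tpt1 (chromosome 14, 75845256 to 75848303, plus strand) lay 5345 bp past its end, and it was 364 bp long (fold 3.31, FDR 0.0710). The outermost peak that still counted began 4574 bp past the end of Ncl. A limit of 10 kb would have added Tpt1 and made 9 of 10 genes, against 53.9% of protein-coding genes at that limit. At 1 kb, 8 of 10 had a peak (37.8%), and with at least 50% of the peak required inside the 5 kb limit also 8 (46.5%). Tpt1 and Eef1b2 are 2 of the 3 shortest genes of the 10, but Eef1a1, with 3272 bp, lies between them in length and was covered over most of it.

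Among the nucleolar genes, Ncl was occupied mainly around its end and Npm1 in many peaks, most of them short. Ncl encodes nucleolin, which binds ribosomal RNA precursors. In Ncl (chromosome 1, 86344719 to 86359455, minus strand) a peak of 3373 bp, the longest of the 40, covered the last 732 bp of the gene and reached 2641 bp past it, with a fold of 4.78 and an FDR of 5.54e-06. The highest fold of Ncl, 5.52 (FDR 1.27e-07), was farther out, in a peak of 521 bp that began 4574 bp past the end and overlaps no other annotated gene. Near the start there was 1 peak of 342 bp, beginning 112 bp into the gene, with a fold of 3.19 (FDR 0.0124).

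Npm1 encodes nucleophosmin, a chaperone of ribosome assembly. Npm1 (chromosome 11, 33152498 to 33164142) had 8 peaks, the most of the 10 genes, but none with a fold above 3.54. Of these, 4 lay below its lower boundary, 1 across that boundary, and 3 inside. The 3 that passed an FDR of 0.05 were 1 inside, near the higher boundary (277 bp, fold 3.43, FDR 0.000499), and 2 in the lower flank (folds 3.33 and 3.54). The lower flank was covered over 64.7% of its 5 kb and the higher flank over 0%. Most of the lower flank cover came from peaks that did not pass an FDR of 0.05. The longest of them had 1989 bp (fold 2.36, FDR 0.232), while the 2 that passed had 232 and 263 bp.

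Pabpc1, which encodes the main cytoplasmic poly(A) binding protein, had 5 peaks, of which 1 passed an FDR of 0.05. In Pabpc1 (chromosome 15, 36595658 to 36609581) that peak lay inside, 362 bp long with a fold of 3.54 and an FDR of 0.000739. The lower flank was covered over 22.1%, by peaks that did not pass this limit, and the higher flank over 0%.

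Peaks at several of these genes continued past the annotated end, but Eef1b2 and Tpt1 had none there. Few peaks lay before the start, as genome-wide, which is no trait of these genes. Strand was known for 7 of the 10 genes. Of these, 5 had a peak in the 5 kb past the end, where 20.4% of 17492 protein-coding genes with a strand had one. In the 5 kb before the start 1 of 7 had a peak, through the 42 bp of the Eif4a1 peak, against 8.01% of genes. The stricter limit, an FDR of at most 0.05, kept 4 of 7 genes past the end (7.43% of genes) and 1 of 7 before the start (2.48%). The 5 kb past the end were covered over 83.1% at Eef1a1, 68.5% at Ncl, 55.6% at Eif4a1, 47.6% at Eif4a2 and 9.30% at Eef2. The mean over the 7 genes was 37.7% past the end and 0.120% before the start, against 2.93% and 0.878% over all genes with a strand.

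Genome-wide, too, more genes had a peak past the end than before the start. Of the 5 genes of the set with a strand and a flank peak, 4 had flank peaks past the end and none before the start, as did 69.3% of all such genes. At Eif4a1, Eif4a2 and Eef2 the flank peaks overlapped other annotated genes. Of the 7, only Eef1a1 and Ncl had flank peaks past the end that overlapped no other annotated gene, and 12.8% of all genes with a strand had such a peak. Followed outward from the gene end across gaps of at most 1 kb, peaks reached 6.87 kb past Eef1a1 and 5.09 kb past Ncl. They reached 2.86, 1.57 and 0.634 kb past Eif4a1, Eif4a2 and Eef2. Peaks on other annotated genes were kept here. The run past Eef1a1 includes the peak that lies over Mto1 for 1951 bp. A reach of at least 5 kb was found in 0.394% of genes with a strand. Eef1g, Npm1 and Pabpc1, for which no strand was at hand, each had flank peaks on 1 side only, as did 91.1% of the protein-coding genes with a flank peak. At an FDR of at most 0.05 this background was 92.3%, and Eef1g and Npm1 still had such a peak.

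**Figure D2:**
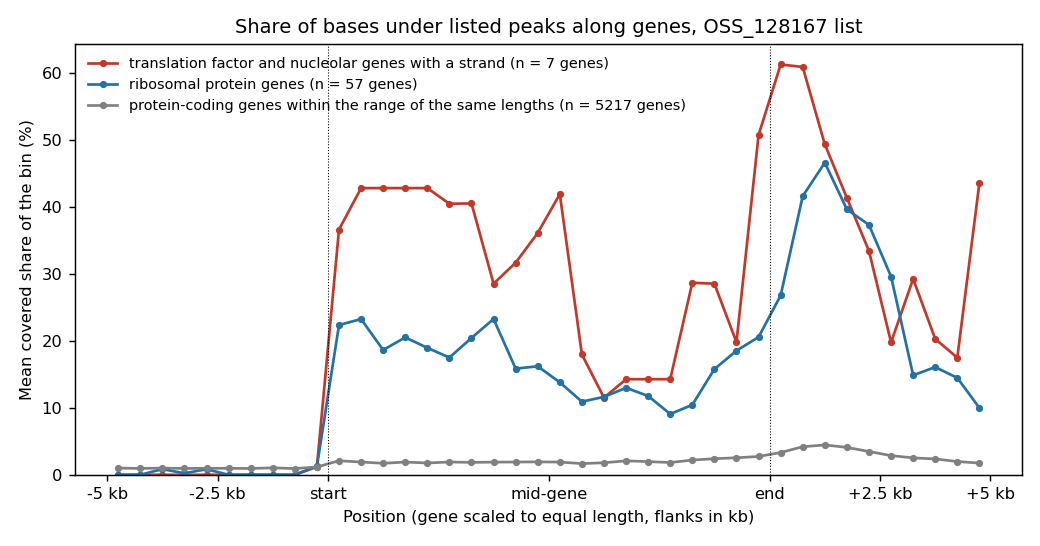
Mean share of bases under listed OSS_128167 peaks in 10 bins per 5 kb flank and 20 bins per gene, for the 7 genes with a strand, 57 ribosomal protein genes and 5217 protein-coding genes of 3048 to 14737 bp. The 7 genes reach 61.3% in the first bin past the end, ribosomal protein genes 46.7% in the third bin past it, and genes of the same lengths 4.46%.

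The peaks at these genes were longer than those of the whole list, by a median of 436.5 against 278 bp. Of the 40 peaks, 10 (25%) were at least 1000 bp long, against 1.82% of all peaks. Median fold was 3.03 for the 40 peaks and 2.87 for all, with a range from 2.18 to 8.19. An FDR of at most 0.05 was reached by 19 of the 40 peaks (47.5%), against the 16.1% of all peaks given above. Another annotated gene lay under 12 of the 40. The 40 peaks were 19 that overlap a gene and 21 in a flank only.

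**Figure D3:**
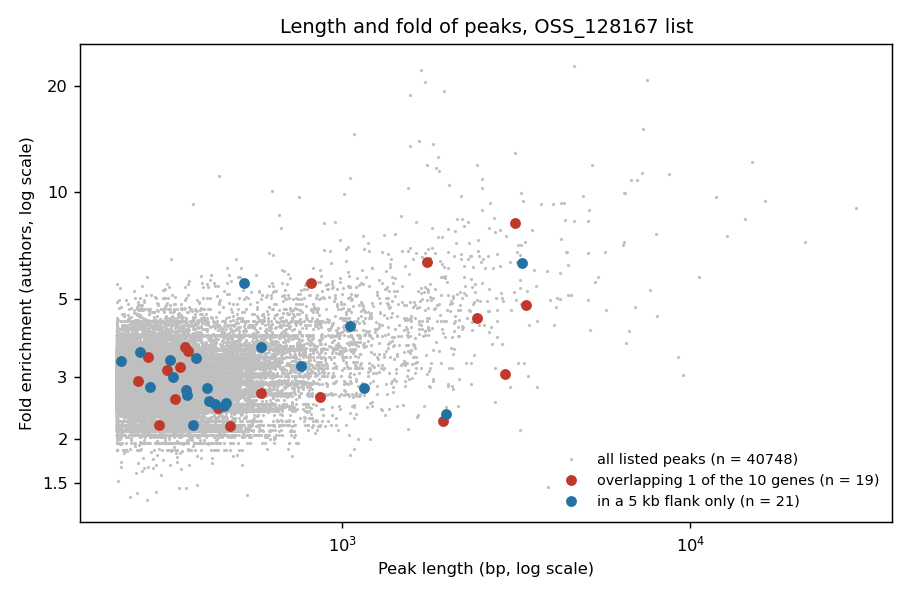
Length (bp, log scale) against the authors' fold enrichment (log scale) for the 40748 peaks of the OSS_128167 list (grey), with the 19 peaks that overlap 1 of the 10 genes in red and the 21 in a flank only in blue. The coloured points run out to 3373 bp in length, and their folds stay between 2.18 and 8.19.

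Small nucleolar RNA (snoRNA) genes, which guide the modification of ribosomal RNA, lie within 6 of the 10 genes. Of the 14 annotated snoRNA genes inside them, 5 were under an OSS_128167 peak, against 4.78% of all 1340 snoRNA genes, and none under an untreated peak. Eif4a2 held 4 of the 5, among them Snord2, wholly covered, and Snora81, covered over 82.9%, and Eif4a1 held the other one, while 1 further snoRNA gene in Eif4a2 and 2 in Eif4a1 were under none. The snoRNA genes in Eef2, Eef1b2, Tpt1 and Ncl, such as Snord37, Snora41, Snora31 and Snord82, were under no peak. The 5 lie in the 2 genes of widest cover, so they share the peaks of their host.

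Of 78 further genes of translation and of the nucleolus, 59 (75.6%) had an OSS_128167 peak inside or within 5 kb. The share over all protein-coding genes was 46.7%. With peaks limited to an FDR of at most 0.05, 33 (42.3%) had one, against 15.6%. Cover of at least 50% was found in 1 of the 78 (1.28%), against 0.681%. The median length of the 78 was 16997 bp, against 6272 bp for the 10 genes, so their shares of cover are not directly comparable. Peaks without an FDR limit were also counted by list. Initiation factors had 29 of 36, nucleolar genes 18 of 26, poly(A) binding proteins and their partners 6 of 6, termination and recycling factors 3 of 4 and elongation factors 3 of 6. With the 10 genes included, the medians of cover in these lists were 0.783%, 0%, 1.53%, 1.04% and 0%. Among the 64 further genes with a strand, 35 (54.7%) had a peak in the 5 kb past the end and 12 (18.8%) in the 5 kb before the start. Over all protein-coding genes with a strand these shares were 20.4% and 8.01%.

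That gene was Eif1 (chromosome 11, 100319949 to 100322099), which encodes a factor for start codon selection. It was covered wholly, by a peak of 5729 bp (fold 4.64, FDR 3.52e-11) that reached beyond both of its boundaries. The highest folds among the rest were 6.83 at Eif4g2, a gene related to the scaffold eIF4G, 6.18 at Eif3a, the largest subunit of the eIF3 complex, and 5.72 at Gnl3, a nucleolar GTPase gene. The peaks at Eif3a and Gnl3 lay in a flank, outside the gene. Of the 78 genes only Eif2s2, which encodes a subunit of eIF2, had a peak in the untreated list, with a fold of 3.54 and an FDR of 1. Among all protein-coding genes 2.71% had an untreated peak.

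Cytosolic ribosomal protein genes, whose mRNAs are known for the TOP motif, had peaks inside or within 5 kb in 71 of 77 cases (92.2%). With peaks limited to an FDR of at most 0.05, 58 (75.3%) had one. These counts stand beside 46.7% and 15.6% of all protein-coding genes. The median cover of the ribosomal protein genes was 7.64%, next to the 8.26% of the 10 genes. Of the 77, 9 (11.7%) were covered over at least 50%, against 0.681% of protein-coding genes. Their median length was 3175 bp, against 6272 bp. Of 57 with a strand, 53 had a peak in the 5 kb past the end and 7 in the 5 kb before the start. Over all protein-coding genes with a strand these shares were 20.4% and 8.01%. In the untreated list 2 of the 77 had a peak, against 2.71% of protein-coding genes.

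**Figure D4:**
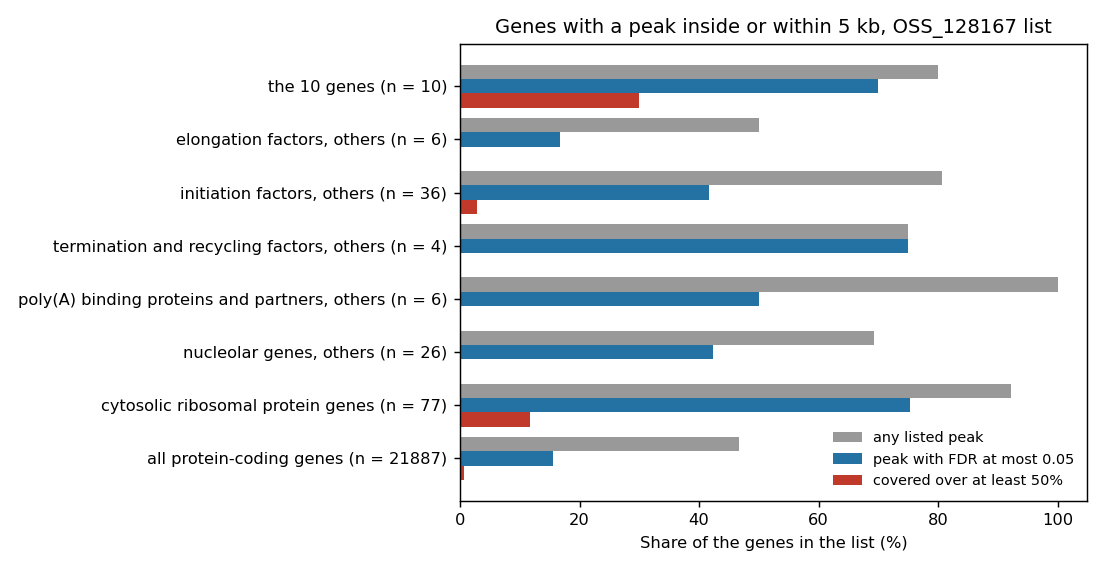
Share of genes (%) with any OSS_128167 peak inside or within 5 kb (grey), with one at an FDR of at most 0.05 (blue) and covered over at least 50% (red), for the 10 genes, the other genes of 5 lists, ribosomal protein genes and all protein-coding genes. Cover of at least 50% is at 30% for the 10 genes, 11.7% for ribosomal protein genes and 0.681% for all genes.

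The medians of the set were a cover of 8.26% over the 10 genes and a highest fold of 4.58 over the 8 with a peak. Outside these lists, the genes closest to both medians were Exosc9, an RNA exosome subunit gene, H2-M10.3, a class I histocompatibility gene, Ccna2, which encodes cyclin A2, Aebp1, a matrix protein gene, and Wdr46, a nucleolar protein gene. They were found among 2255 genes of the same range of lengths with a peak, by the distance in cover and fold in units of the SD over genes with a peak, and all 5 lay within 0.15 units. The measure rests on 1 library. Within the set, highest folds ran from 2.53 to 8.19 and cover from 0% to 80.9%, so the 5 genes resemble its medians only. Exosc9 and Ccna2 are neighbours and owe their highest fold to the same peak.

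Genes of this class have processed pseudogenes that can share reads with them, so the values at the 10 genes are uncertain to that extent. Pseudogenes were found by symbol only, so genes without one here are not shown to lack them. Of the 10 pseudogenes whose symbols name a member of the set, 7 are named after Tpt1, 2 after Eef1a1 and 1 after Eef2. None was under a peak in either list. The sources used here do not say how reads with several matching places were handled, and their part in these results was not tested.

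In the untreated list the nearest peak to any of the 10 genes was 240.1 kb away, at Eef1g. The median distance was 564 kb and the largest 32.32 Mb, at Tpt1. The peaks nearest to Eef1a1, Ncl and Eif4a1 lay 338.3, 333.3 and 593.2 kb away, and each had an FDR of 1. The untreated list thus had no peak just beyond the 5 kb limit of any of the 10 genes. With 1694 peaks in that list, only 3.13% of all protein-coding genes had one within 10 kb. These distances are therefore no result about the 10 genes.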

How the data were processed

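The submitters' processing notes name fastp, BWA and mm10, and no version. The peak caller, its thresholds and its use of the inputs were not given in the sources used here. Per the file headers, the authors deposited 1 list per Pol II library that gives each peak a length, a pileup (signal), a p-value with its FDR, and a fold enrichment, which is a ratio. Positions count from 1, as the lengths show. The untreated pileup is in scaled units and the OSS_128167 pileup in whole units, so neither pileup nor fold was compared between lists. The inputs were not used here.

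A RefSeq table (GRCm38.p6) gave the gene boundaries. Strand came from the RefSeq promoter table, which covers 7 of the 10 genes. Overlap needed 1 bp. Covered share is the bases of a gene under listed peaks over its length. Ribosomal protein genes were chosen by symbol. Scripts ran under Python 3.11.15 with pandas 2.3.3, numpy 2.4.6, scipy 1.17.1 and matplotlib 3.10.9. Counts over 300 simulated intervals differed 0 times from a base-by-base search.

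The 10 genes, the lists and the limits were chosen with earlier results of these data known. Besides the 10 genes, the text names list genes covered over at least 50%, the 3 of highest fold among the rest, those with an untreated peak, the 5 nearest to the medians, and annotated genes under the peaks. The cover of the flanks, the promoter motifs and the pseudogenes were added after the data were seen. No test between conditions was possible with 1 library each.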

Additional observations from a re-analysis of the deposited data

How the results depend on the processing

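Limiting peaks to an FDR of at most 1e-05 lowered the genes with an OSS_128167 peak from 8 to 4 of 10, those covered over at least 50% from 3 to 1, and the median cover from 8.26% to 0%. At an FDR of at most 0.05 the median cover was 2.49%. Joining gaps of up to 500 bp between peaks gave a median of 8.59%, and adding 1 kb on each side of the gene 11.6%. Genes with a peak past the end numbered 2 in place of 5 when flank peaks on other annotated genes were left out (12.8% of all genes with a strand), an alternative chosen after seeing the data, as were the 10 kb limit, the FDR limit on peaks past the end (4 in place of 5) and the length-matched background. The count of genes with an untreated peak was 0 under the 6 alternatives run: limits of 0, 1 and 10 kb, both FDR limits, and at least 50% of the peak inside. In the OSS_128167 list a limit of 0 kb gave 7 genes, an FDR of at most 0.05 gave 7, 1 kb and the 50% overlap gave 8, and 10 kb gave 9 (53.9% of protein-coding genes). Without flanks the highest folds of Eef1a1, Eef2, Npm1 and Ncl became 5.54, 2.45, 3.43 and 4.78. No paired analysis was possible because each condition has 1 library, and no replicate could be left out. Depth is not given in the lists, so a gene without a listed peak is not shown to lack Pol II.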
